A study of Homo sapiens with 3 samples.

Results

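The genes described here are 10 parts of the RB and E2F switch of the cell cycle: the transcription factor genes E2F1, E2F2, E2F3, E2F7 and E2F8, the RB family genes RB1, RBL1 and RBL2, and the cyclin E genes CCNE1 and CCNE2. They were chosen by name, with earlier results of these data known, through probe sets whose platform annotation names that gene alone. All 10 were measured, each by 1 probe set, out of 18417 genes in the table. The cells were LNCaP, an androgen-responsive line from a lymph node metastasis of prostate carcinoma, grown in serum-containing medium and harvested 72 hours after siRNA transfection. The groups were cells given siSE1 or siSE2, siRNAs directed at the SLC45A3-ELK4 chimeric RNA (1 array each, n = 2 together), and cells given a negative control siRNA (1 array). One label field of the siSE2 array names siSE1 instead, and if that field is right both arrays carry the same siRNA. Separate cultures are not stated for the arrays, and the p-values therefore reflect only the spread among them, which may be technical. The question was which of these genes differ when the chimera is targeted.

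E2F proteins bind DNA upstream of genes needed for DNA synthesis. E2F1, E2F2 and E2F3 are activators, while E2F7 and E2F8 are atypical members that bind without a DP partner and repress. The RB family proteins (pRB from RB1, p107 from RBL1, p130 from RBL2) hold E2F factors in check until cyclin-dependent kinases phosphorylate them. Cyclin E1 and cyclin E2, products of CCNE1 and CCNE2, activate CDK2 for this step at the entry to S phase. Several of these genes are themselves E2F targets, so the switch feeds back on itself.

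E2F-type letters in the promoters of member genes are shown because that feedback is known to act through E2F sites. Binding to these letters was not measured. RefSeq promoter windows (GRCh38.p14) were matched by symbol for 8 of the 10 genes, all but E2F8 and CCNE2, with more than 1 window for E2F3 and RBL2, and the 250 bases before each start were searched on both strands for TTTGGCGC, TTTCCCGC, TTTGCCGC or TTTCGCGC. At least 1 such word stood in windows of E2F1, E2F2, E2F3 and RBL1, in 40% of the 10 member windows, against 2.79% of all 35116 windows. The words also stood in 27.3% of the 55 windows of the classic E2F target genes read below. The RB1 window and 1 window each of E2F3 and RBL2 lie inside the annotated gene and held none of these words, and of the 7 windows at the outer gene start 4 held one. The same search also covered GGCGGGAA, found in 10% of member windows, 16.4% of target windows and 2.72% of all windows. It covered TTTGAA as well, found in 10%, 10.9% and 13.3%, so not more often in members. Among the members both stood in E2F3 alone. The 80 bases before the start, 5′ to 3′ on the gene's strand, are printed with each match of the 4 words named first in capitals. They lie at chr20:33686386-33686465 (minus strand, E2F1), chr1:23531234-23531313 (minus strand, E2F2), chr6:20401799-20401878 (plus strand, E2F3), chr20:37095998-37096077 (minus strand, RBL1) and chr19:29811911-29811990 (plus strand, CCNE1).
E2F1: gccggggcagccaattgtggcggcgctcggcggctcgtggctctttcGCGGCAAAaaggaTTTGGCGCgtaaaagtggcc
E2F2: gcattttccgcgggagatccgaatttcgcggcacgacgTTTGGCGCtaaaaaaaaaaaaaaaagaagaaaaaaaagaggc
E2F3: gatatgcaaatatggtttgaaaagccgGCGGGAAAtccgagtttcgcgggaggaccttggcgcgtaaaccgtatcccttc
RBL1: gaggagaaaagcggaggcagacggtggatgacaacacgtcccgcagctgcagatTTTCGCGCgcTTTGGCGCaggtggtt
CCNE1: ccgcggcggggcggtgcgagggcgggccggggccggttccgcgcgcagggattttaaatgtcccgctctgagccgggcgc
E2F1 and RBL1 carry 2 matches each, close to the start, and none of the words searched lies in the CCNE1 window. A match is a description of the letters, and its absence says nothing about binding. The genes with matches did not share a direction: E2F3 read higher on both siRNA arrays, and E2F1, E2F2 and RBL1 read lower. None of these differences passed the test described next, and a link of the words to them was not tested.

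None of the 10 genes passed the test across all genes. Both siRNA arrays were set against the control array in 1 limma fit over 12892 genes, and genes with a Benjamini-Hochberg adjusted p under 0.05 were called. In this test 0.962% of all genes passed (0.248% or 32 higher, 0.714% or 92 lower), and 0 of the 10 members did in either direction. At an unadjusted p under 0.05 in the same limma fit, 1 member was higher (CCNE1) and 3 were lower (E2F8, RBL1 and CCNE2), that is 4 of 10, against 17.8% of all genes. A size rule of at least 1.5-fold in the same direction with both siRNAs was met by 2.11% of all genes (0.582% higher, 1.53% lower) and by none of the members. At 1.3-fold it was met by 2 members, against 8.39% of all genes: CCNE1 was higher (2.58% of all genes) and E2F8 lower (5.82% of all genes). On both siRNA arrays 8 of the 10 read below the control by any amount and 2 above it (RBL2 is counted below, although its siSE2 value differed by only -0.0017), against 41.7% of all genes below and 36.4% above. The median difference of the members was -0.29 (log2), against -0.02 over all genes tested. Because the members were chosen with earlier results of these data known, these shares describe them and give no independent support. With 1 residual degree of freedom, a gene's own spread came from siSE1 against siSE2 alone, and the control is taken to share it. The fit drew this spread toward a value pooled over all genes, with 8.46 prior degrees of freedom. Each SE therefore reflects the pooled value more than the gene's own 2 siRNA arrays. Cells were measured in bulk, so fewer cells in a cycle phase and less RNA per cell cannot be told apart.

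**Figure D1:**
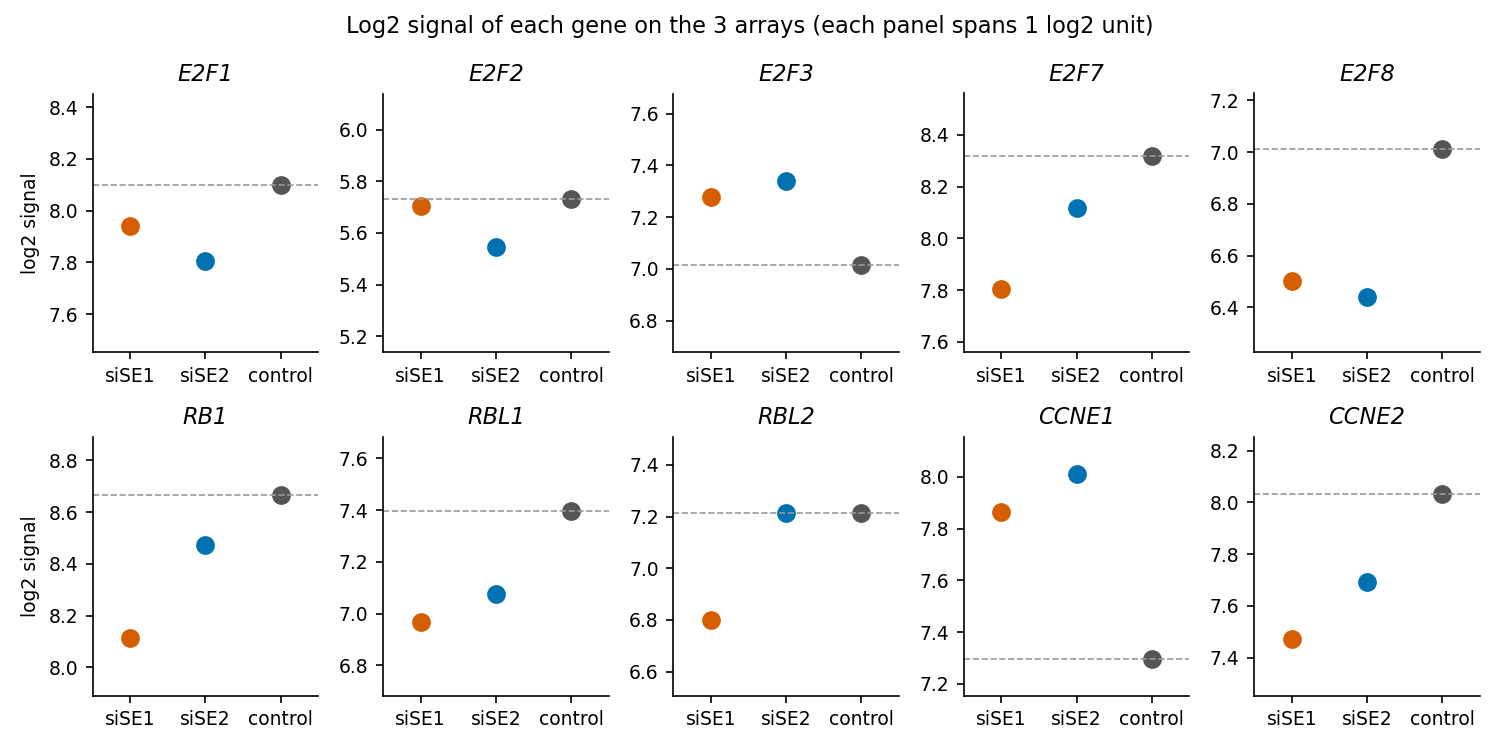
Log2 signal of the 10 genes on the siSE1, siSE2 and control arrays (1 point per array, dashed line at the control value; every panel spans the same range of 1 log2 unit, and panels are not comparable in level). CCNE1 and E2F3 lie above the control with both siRNAs, the other 8 genes at or below it, and RBL2 with siSE2 is level with the control.

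CCNE1 read higher and CCNE2 lower with both siRNAs, neither passing. CCNE1 read 7.87 with siSE1 and 8.01 with siSE2, against 7.30 on the control array (log2). Both siRNA arrays stood above the control, by 0.57 and 0.71, a mean difference of 0.64 ± 0.15 (SE, n = 2 against 1; 1.56-fold). It did not pass (limma, adjusted p = 0.0731; unadjusted 95% interval 0.31 to 0.97), and it was among the 0.714% of tested genes with the highest mean difference. CCNE1 did pass where arrays were scaled to equal medians (limma, adjusted p = 0.049) or by cyclic loess (adjusted p = 0.0462), and its adjusted p ran from 0.0462 to 0.166 over all settings tried. With siSE1 its 1.48-fold difference lay just under the 1.5-fold rule, and with siSE2 it was 1.64-fold. CCNE2 read 7.47 with siSE1 and 7.69 with siSE2, against 8.03 on the control array. Both siRNA arrays stood below the control, with a mean difference of -0.45 ± 0.15 (SE; limma, adjusted p = 0.174; unadjusted 95% interval -0.80 to -0.11). The change of CCNE1 exceeded that of CCNE2 by 1.13 with siSE1 and by 1.05 with siSE2 (log2), a contrast chosen after the values were seen and given without a test.

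Among the activators, E2F3 read higher and E2F1 and E2F2 lower, all without passing. E2F1, the best known activator of S-phase genes, read 7.94 with siSE1 and 7.81 with siSE2, against 8.10 on the control array. Its mean difference was -0.23 ± 0.15 (SE; limma, adjusted p = 0.452), with an interval from -0.55 to 0.10 that includes 0. E2F2 read 5.71 and 5.55 with siSE1 and siSE2, against 5.73 on the control array. This probe set was dim, near the filter level of 5.12, and its difference of -0.11 ± 0.15 was smaller than its error (limma, adjusted p = 0.750). E2F3 read 7.28 and 7.34 with siSE1 and siSE2, against 7.01 on the control array. Both siRNA arrays lay above the control and close to each other, and the mean difference was 0.30 ± 0.14 (SE; limma, adjusted p = 0.312; interval -0.02 to 0.61). The E2F3 probe set reports the whole gene, so the isoforms that start at the separate promoters of E2F3 are not told apart.

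The atypical repressors both read lower, E2F8 more evenly than E2F7. E2F8 read 6.50 with siSE1 and 6.44 with siSE2, against 7.01 on the control array. The siRNA arrays differed by 0.06 from each other and by 0.51 and 0.57 from the control in size, and the mean difference of -0.54 ± 0.14 (SE) was the lowest among the members, at 1.46-fold below the control. It did not pass (limma, adjusted p = 0.0962; unadjusted 95% interval -0.86 to -0.23), and 3.59% of tested genes had a mean difference as low or lower. E2F7, also known as a p53-induced gene, read 7.80 with siSE1 and 8.12 with siSE2, against 8.32 on the control array. Its mean difference was -0.36 ± 0.17 (SE; limma, adjusted p = 0.297), of which siSE1 gave -0.51 and siSE2 -0.20.

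All 3 RB family genes read lower with siSE1, while with siSE2 RB1 and RBL1 read lower and RBL2 was level with the control, and none passed. RB1, which encodes the tumour suppressor pRB, read 8.11 with siSE1 and 8.47 with siSE2, against 8.67 on the control array. The mean difference was -0.38 ± 0.17 (SE; limma, adjusted p = 0.296), and siSE1 stood further from siSE2 than siSE2 did from the control. RBL1, whose product p107 is itself made under E2F control in cycling cells, read 6.97 and 7.08 with siSE1 and siSE2, against 7.40 on the control array. Its difference of -0.38 ± 0.14 (SE; limma, adjusted p = 0.217) had an unadjusted 95% interval from -0.70 to -0.05. RBL2, whose product p130 is the family member of resting cells, read 6.80 with siSE1 and 7.21 with siSE2, against 7.21 on the control array. The siSE2 value differed from the control by -0.0017, so the mean difference of -0.21 ± 0.18 (SE; limma, adjusted p = 0.588) rests on siSE1 alone, which gave -0.41.

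**Figure D2:**
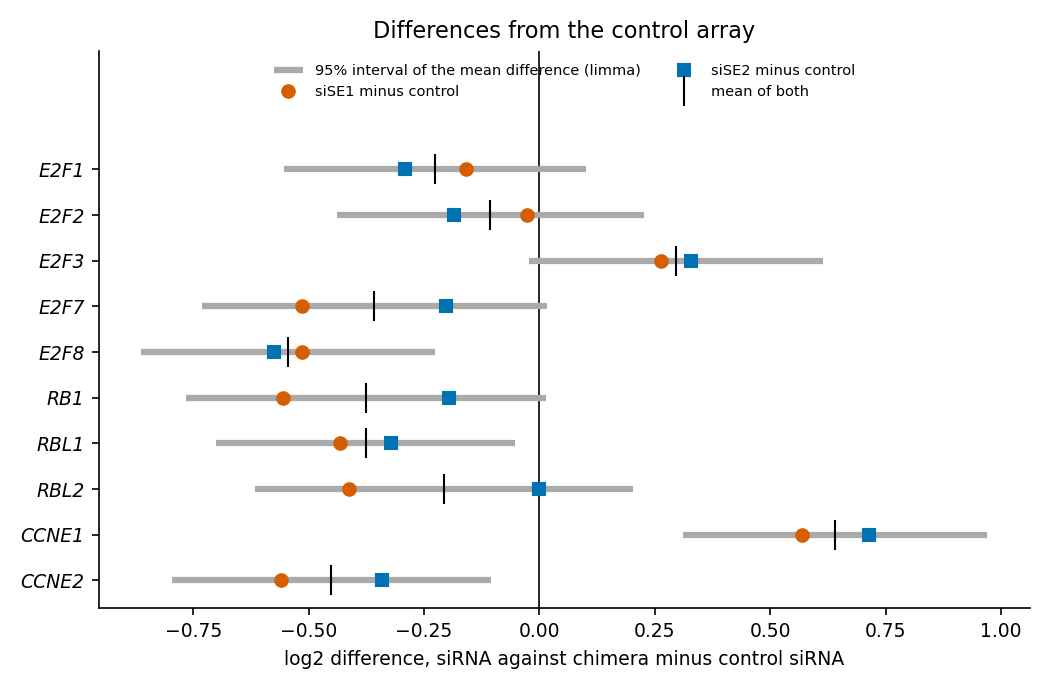
Log2 difference from the control array for each gene with siSE1 (circles) and siSE2 (squares), the mean of both (vertical ticks) and its unadjusted 95% interval from limma (grey bars). The intervals of CCNE1, E2F8, CCNE2 and RBL1 leave out 0, and that of CCNE1 lies on the higher side.

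The members differed between siSE1 and siSE2 by up to 0.41 in size, with 1 array each and so no test. Over all genes tested the siRNA arrays differed by a median of 0.12 in size and by 0.41 at the 95th percentile, and RBL2 alone among the members lay past that percentile. RBL2 differed by -0.41 (siSE1 minus siSE2), RB1 by -0.36 and E2F7 by -0.31. These 3 genes read lower with siSE1, as did 7 of the 10 members, against 51.0% of all genes. E2F8 and E2F3 differed least, by 0.06 and -0.06. Without siSE1 the differences from the control were -0.20 for RB1, -0.20 for E2F7 and -0.34 for CCNE2. The siRNA arrays share their control array, so their differences from it are given side by side and not correlated.

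**Figure D3:**
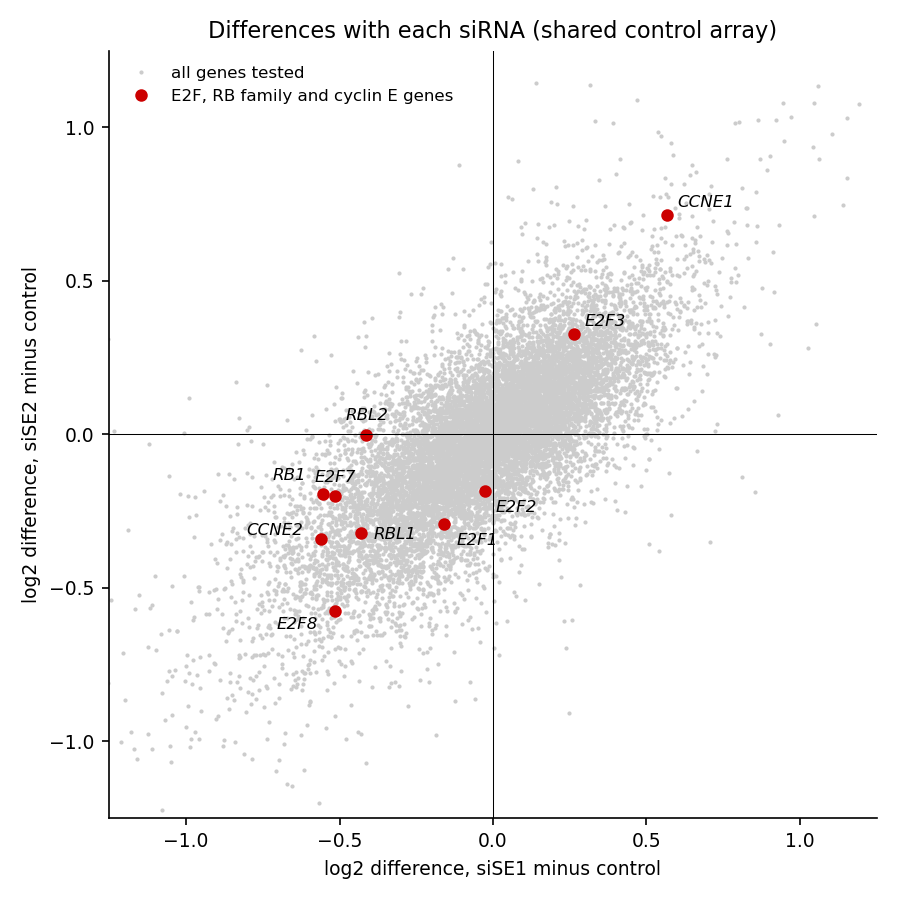
Log2 difference from the shared control array with siSE1 (horizontal) and siSE2 (vertical) for all 12892 genes tested (grey) and the 10 genes (red); 30 genes lie outside the axes. CCNE1 and E2F3 stand in the upper right of the plot, and RB1, E2F7 and RBL2 lie nearer 0 on the siSE2 axis than on the siSE1 axis.

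Other genes of the pathway were read in 8 further lists, and CCNA2, CDC25A and MYBL2 stand in more than 1 list. These lists too were chosen with earlier results of these data known, so their shares are descriptions only. The classic E2F targets are genes of DNA synthesis and cell division. Of 38 tested targets 3 fell, 0 rose and 35 did not pass, where 0.714% of all genes fell and 0.248% rose. With both siRNAs 37 targets read below the shared control, against 41.7% of all genes. Their median difference was -0.42 (log2), against -0.02 over all genes. At an unadjusted p under 0.05 (limma), 27 were lower and 0 higher, against 11.3% and 6.46% of all genes. CDC45, a subunit of the replicative helicase, fell by 0.92 ± 0.16 (SE; limma, adjusted p = 0.0378), MCM4, another helicase subunit, by 0.88 ± 0.15 (adjusted p = 0.0378) and ASF1B, a histone chaperone, by 0.82 ± 0.14 (adjusted p = 0.038). The licensing factor gene CDC6 differed by -0.75 ± 0.15 without passing (limma, adjusted p = 0.058). These 3 calls were lost with quantile normalization, with no filter on dim genes and when the filter was raised to the median level (limma, adjusted p = 0.0503 for each in the last case). CDK1, the mitotic kinase gene, was the target that did not read below the control on both arrays, at 8.06 and 8.23 with siSE1 and siSE2, against 8.08 on the control array.

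Among CDK inhibitors, which keep the RB family unphosphorylated, CDKN1A alone passed. Of 6 tested inhibitor genes 1 rose, 0 fell and 5 did not pass, with a median of 0.20. Over all genes 0.248% rose and 0.714% fell. At an unadjusted p under 0.05 (limma), 2 inhibitor genes were higher and 0 lower, against 6.46% and 11.3% of all genes. CDKN1A, which encodes p21, an inhibitor of cyclin E with CDK2, read 9.71 and 9.85 with siSE1 and siSE2, against 8.41 on the control array (1.37 ± 0.15, SE; limma, adjusted p = 0.0147). This call was lost with quantile normalization (limma, adjusted p = 0.0923) and with no filter (adjusted p = 0.0927). CDKN2B, which encodes the CDK4 and CDK6 inhibitor p15, differed by 0.43 ± 0.14, CDKN1B, which encodes p27, by 0.20 ± 0.14 and CDKN1C, which encodes p57, by 0.19 ± 0.14.

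Of 9 tested cyclin and kinase genes of G1 and S phase none passed (limma; at an unadjusted p under 0.05, 0 higher and 4 lower, against 6.46% and 11.3% of all genes), with a median of -0.30. CDK2, the kinase partner of cyclin E, differed by -0.56 ± 0.14 (limma, adjusted p = 0.0929), nearly the same with siSE1 (-0.56) and siSE2 (-0.56). CCNA2, the S-phase cyclin that follows cyclin E, differed by -0.53 ± 0.14, CCND3, a D-type cyclin, by -0.37 ± 0.15 and CCNH, the cyclin of the CDK-activating kinase, by -0.36 ± 0.14.

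The other E2F factors and DP partners did not pass (limma, 5 tested; at an unadjusted p under 0.05, 1 higher and 0 lower, against 6.46% and 11.3% of all genes; median 0.10). E2F5, a factor that works with p107 and p130, came nearest, at 7.67 and 7.86 with siSE1 and siSE2, against 7.01 on the control array (0.76 ± 0.15, SE; limma, adjusted p = 0.0539). It passed with equal array medians (limma, adjusted p = 0.0305), cyclic loess (adjusted p = 0.0324), the brightest probe set (adjusted p = 0.0481) and an intensity trend in the variance (adjusted p = 0.048). E2F6, a repressor that lacks the RB-binding part, differed by 0.10 ± 0.14, TFDP2, a DP partner gene, by 0.13 ± 0.15 and TFDP1, the main DP partner gene, by -0.24 ± 0.17.

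Among 9 tested genes of the ubiquitin ligases that act on cyclin E, E2F1 and p27, none passed (limma; at an unadjusted p under 0.05, 0 higher and 3 lower, against 6.46% and 11.3% of all genes; median -0.17). CKS1B, an adaptor of the ligase for p27, differed by -0.60 ± 0.14 (limma, adjusted p = 0.0803, and 0.0398 with the brightest probe set). CCNF, whose product cyclin F marks E2F1 for degradation, differed by -0.59 ± 0.14. RBX1, the RING subunit of cullin ligases, differed by -0.53 ± 0.14, and SKP1, the adaptor of those built on CUL1, by -0.17 ± 0.14. Of 8 genes listed for DREAM, the complex through which p107 and p130 repress, and for MuvB and its partners, none passed (limma; at an unadjusted p under 0.05, 0 higher and 2 lower, against 6.46% and 11.3% of all genes; median -0.25). FOXM1, a transcription factor of the G2 programme, differed by -0.73 ± 0.15 (limma, adjusted p = 0.0608, and 0.0409 with equal array medians), LIN54, the DNA-binding MuvB subunit, by -0.45 ± 0.14, DYRK1A, a kinase that assembles DREAM, by -0.31 ± 0.14 and MYBL2, a MuvB partner, by -0.30 ± 0.14.

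Of 8 tested RB corepressor genes none passed (limma; at an unadjusted p under 0.05, 1 higher and 0 lower, against 6.46% and 11.3% of all genes; median 0.04). HDAC3, a histone deacetylase gene, differed by 0.60 ± 0.15 (limma, adjusted p = 0.0875), SIN3A, a corepressor scaffold, by 0.30 ± 0.14, SUV39H1, a histone methyltransferase gene, by 0.16 ± 0.15 and RBBP7, a histone-binding protein gene, by -0.17 ± 0.15. The 5 tested apoptosis genes linked to E2F1 did not pass (median 0.06). At an unadjusted p under 0.05 the limma counts were 0 higher and 0 lower, against 6.46% and 11.3% of all genes. BBC3, which encodes PUMA, differed by 0.31 ± 0.15, TP73, a p53 relative, by 0.16 ± 0.14, PMAIP1, which encodes NOXA, by -0.09 ± 0.14 and APAF1, the apoptosome scaffold, by -0.18 ± 0.14.

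**Figure D4:**
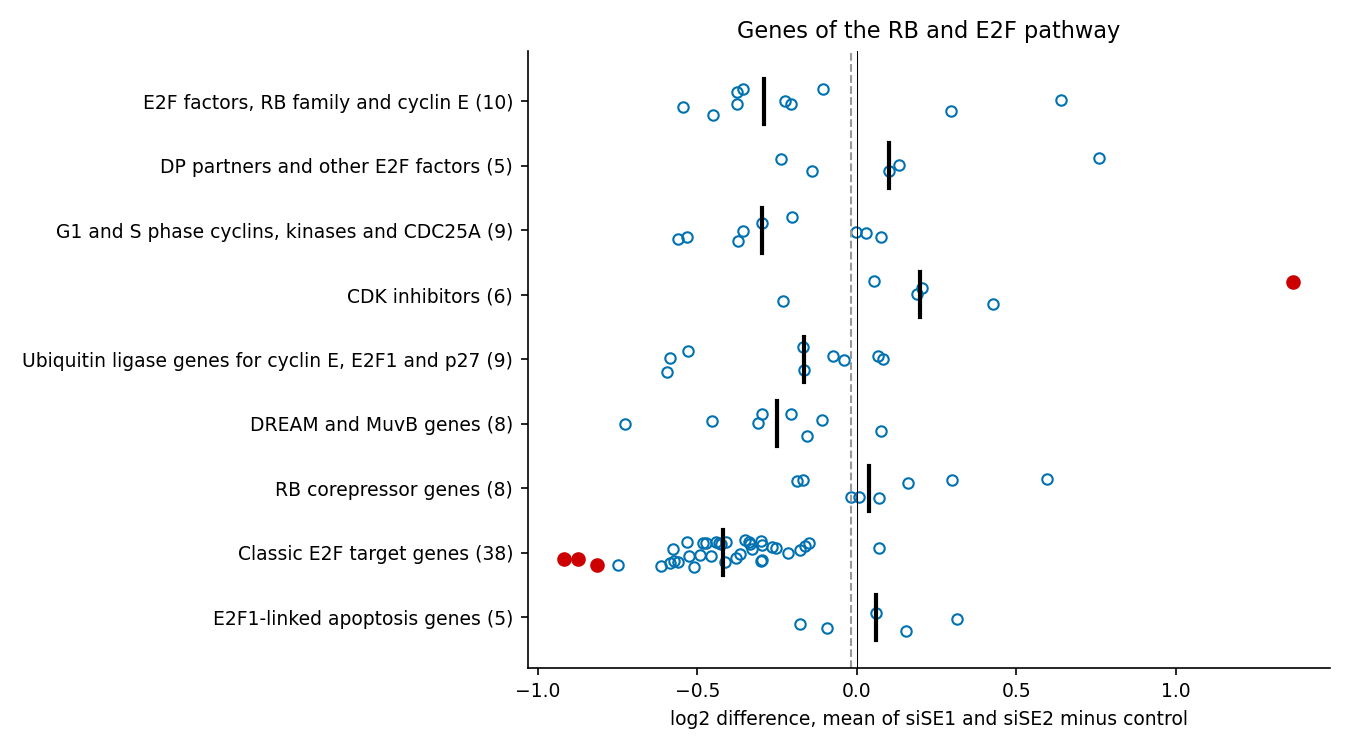
Mean log2 difference from the control array of each tested gene by list (number tested in parentheses; circles, spread vertically at random for view; filled red, adjusted p under 0.05 by limma; black bar, list median; dashed line, median of all genes tested at -0.02). CDKN1A is the filled point on the higher side, and CDC45, MCM4 and ASF1B are those on the lower side.

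The tested genes with the pair of differences nearest to a member were found by distance over siSE1 and siSE2. For CCNE1 these were SLC25A18, TMEM41A and FAM201B, at distances of 0.034, 0.037 and 0.040 (log2), with mean differences from 0.62 to 0.67. For E2F8 they were PIP4P2, ESPL1 and ANLN, at 0.0068, 0.011 and 0.015, with mean differences from -0.55 to -0.54. ESPL1 encodes separase, which parts sister chromatids, and ANLN encodes anillin, which acts in cytokinesis. The likeness rests on 3 arrays and a shared control, and none of these 6 genes passed the test.

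The whole arrays were alike, with Pearson correlations from 0.989 to 0.993 over all 33297 probe sets. With quantile normalization 1 gene of the whole table was called higher and 0 lower, against the split of 32 and 92 above. Of the prostate luminal markers listed, 6 were measured, and all lay above the filter. They ranged from 7.04 to 10.73 with siSE1, from 7.26 to 10.61 with siSE2 and from 6.39 to 10.24 on the control array. None passed (limma), 4 read above the control with both siRNAs and 2 below, and their median difference was 0.27. At an unadjusted p under 0.05 the limma fit gave 3 higher, ACP3 (0.76 ± 0.15, SE), KRT8 (0.43 ± 0.14) and KRT18 (0.42 ± 0.15), and 1 lower, KLK3, which encodes prostate-specific antigen (-0.39 ± 0.14). At that level 6.46% of all genes were higher and 11.3% lower. Markers of other cells were not all at the low end. The 6 stromal markers ranged from 2.45 to 6.99 with siSE1, from 2.47 to 6.97 with siSE2 and from 2.41 to 6.94 on the control array, and DCN and LUM lay below the filter while COL1A1, COL1A2, COL3A1 and VIM lay above it. The 5 blood cell markers ranged from 3.22 to 7.53 with siSE1, from 3.18 to 7.67 with siSE2 and from 3.17 to 7.30 on the control array, and PTPRC and CD3E lay below the filter while CD14, CD68 and LYZ were tested. The 3 basal markers ranged from 4.93 to 6.20 with siSE1, from 5.21 to 5.99 with siSE2 and from 4.85 to 5.90 on the control array. Of these, KRT5 and KRT15 lay below the filter and KRT14 was tested. No tested stromal, blood cell or basal marker passed (limma), and the 1 at an unadjusted p under 0.05 was LYZ, which read 6.09 and 5.11 with siSE1 and siSE2, against 4.41 on the control array. The part of these markers in any result was not tested.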

How the data were processed

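The authors deposited log2 probe set signals. Per the submitters' processing notes, Affymetrix Expression Console produced them. No version, algorithm, normalization or build is given in the sources used here. The log2 scale was read from the values (1.43 to 13.9). A platform annotation named 1 gene for 19460 of 33297 probe sets, several for 1754 and none for 12083. Symbols were updated through gene identifiers (19429 matched). Probe sets of a gene were averaged, and 5525 genes with a mean under log2 5.12, the 30th percentile, were not tested. All 10 members passed this filter.

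The fit used limma 3.58.1 (lmFit, eBayes) in R 4.3.3 and was tested on simulated data, where a larger share of the calls was false than the threshold of 0.05 allows. SEs are moderated, and the number of arrays limits the precision. Members and lists were chosen with earlier results of these data known. Named genes were all members, up to 4 per list with the largest smaller change where both siRNAs moved one way, and the 3 nearest patterns to the members with the highest and lowest mean difference. CDK1 and the cell type markers named were chosen after seeing their values. The alternatives were 3 normalizations, 2 filters, probe set choice, variance prior, thresholds and leaving out each siRNA array.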

Additional observations from a re-analysis of the deposited data

How the results depend on the processing

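Over 69 refits of the 10 members under other settings none changed sign, and CCNE1 alone passed, in 2 of them. Only the 3 normalizations could change a sign. The filters, probe set choice and variance prior reuse the same values of each member, which has 1 probe set. Counts over all genes moved most. Against 32 higher and 92 lower, quantile normalization gave 1 and 0, no filter 1 and 0, the filter at the 50th percentile 15 and 20, equal array medians 79 and 185, cyclic loess 67 and 121, and a threshold of 0.10 gave 143 and 364. An intensity trend gave 52 and 129, and the brightest probe set 47 and 114. Members called numbered 1 higher with equal array medians and with cyclic loess, and 1 higher and 1 lower at 0.10. The 1.5-fold rule, met by 0 members, was met by 1 with quantile normalization, by 1 with cyclic loess and by 2 at 1.3-fold. With only 1 siRNA array kept it was met by 0 to 1. The median siSE1 minus siSE2 difference over the members ran from -0.15 to -0.10, in settings added after the data were seen. Of 32 other genes named, none changed sign, although the filters and the variance prior could not change one. Classic E2F targets called lower numbered 3, and 0 with quantile normalization, no filter or the 50th percentile filter. The causes were not tested. No paired analysis was possible because there is 1 control array. With 1 array against 1, leaving out an siRNA array allowed no test.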
